A study of Caenorhabditis elegans with 2 samples.

Results

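The regions described here are the ChIP-seq peaks of DAO-5 on the X chromosome of Caenorhabditis elegans that lie away from genes of small structured RNAs. Of 16687 peaks called on the pooled reads, 2739 lay on X, and 2480 of those were more than 200 bp from every gene annotated as tRNA, snoRNA, snRNA, rRNA or miRNA in the RefSeq annotation of WBcel235. The other 259 X peaks were left out. RefSeq places 385 such genes on X, of which 276 are tRNA, 73 miRNA, 33 snoRNA, 3 snRNA and 0 rRNA genes. A check against the 386 small RNA genes that Ensembl places on X found 0 of the 2480 members within 200 bp of one.

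DAO-5 is related to vertebrate Nopp140, which is found in the nucleolus and Cajal bodies, binds small nucleolar ribonucleoproteins and acts in the making of ribosomes. In hermaphrodites a condensin-like dosage compensation complex loads onto both X chromosomes at recruitment sites, spreads from them and lowers transcription along the chromosome. Promoters are the stretches just before gene starts, where transcription factors and RNA polymerase II assemble.

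The worms were whole hermaphrodites of strain OP252 at the L4 or young adult stage, so signal from all tissues is mixed. They carried an inserted DAO-5 transgene with GFP and FLAG at its C-terminal end, and the precipitation used an antibody to GFP. There was 1 group of 2 biological replicates with a control common to both, and no untagged strain was analysed here. The labels do not give the copy number of the transgene or the state of the endogenous dao-5 gene.

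Peaks were called by the authors in each replicate and on pooled reads, in lists that hold peaks together with background, and a stricter list was thresholded on the reproducibility of ranks. Every member of the pooled list was 430 bp wide. The X peaks that met the same distance rule numbered 3640 in replicate 1, 3251 in replicate 2 and 60 in the thresholded list. Those 60 were the 60 strongest of the 2480. Sequencing depth is unknown, and the signal is the authors' value per peak, used only within a list. Peaks are not replicates, so no test was made between groups of peaks, and intervals on shares are exact 95% binomial intervals that cover counting error only. With 1 group, the design allows no comparison between conditions.

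The 6 strongest members and the 2 weakest are shown by 50 bases to each side of their summits. The text below compares the strong end of the list with the weak end. Each is named by the protein-coding gene with the nearest start. Letters are from RefSeq WBcel235, plus strand, 5′ to 3′, and capitals mark the 8-letter word GCGNAGGG or its reverse complement, where N is any base. The member near F55G7.5 has the word 58 bp from its summit, outside the stretch shown. The member near mdl-1 overlaps a stronger pooled peak.
W02H3.3 (rank 1, chrX:11094177-11094277): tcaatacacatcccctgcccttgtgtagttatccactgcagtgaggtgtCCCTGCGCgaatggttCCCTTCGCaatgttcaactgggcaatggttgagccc
ZK899.6 (rank 2, chrX:9465792-9465892): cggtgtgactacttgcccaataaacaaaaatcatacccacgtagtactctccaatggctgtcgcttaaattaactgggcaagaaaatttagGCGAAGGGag
F55G7.5 (rank 3, chrX:11937469-11937569): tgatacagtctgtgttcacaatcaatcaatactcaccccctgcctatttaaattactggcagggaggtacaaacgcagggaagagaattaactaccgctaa
itm-2 (rank 4, chrX:5429526-5429626): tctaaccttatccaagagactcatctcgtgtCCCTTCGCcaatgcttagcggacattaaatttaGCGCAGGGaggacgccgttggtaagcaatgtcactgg
serp-1.1 (rank 5, chrX:15841259-15841359): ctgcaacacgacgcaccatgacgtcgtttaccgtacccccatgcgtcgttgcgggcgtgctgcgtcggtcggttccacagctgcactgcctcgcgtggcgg
T13C5.6 (rank 6, chrX:6207799-6207899): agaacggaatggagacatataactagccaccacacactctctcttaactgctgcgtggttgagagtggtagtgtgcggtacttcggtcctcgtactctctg
mdl-1 (rank 2479, chrX:6745195-6745295): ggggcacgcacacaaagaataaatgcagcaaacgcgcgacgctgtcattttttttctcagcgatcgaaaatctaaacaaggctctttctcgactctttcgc
hlh-15 (rank 2480, chrX:2414734-2414834): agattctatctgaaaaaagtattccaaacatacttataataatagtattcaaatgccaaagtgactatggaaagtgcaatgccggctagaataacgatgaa

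The signal of the members fell off steeply from a small strong end to a long weak tail. In the pooled list it ranged from 16.4 to 148, with a median of 21. The strongest 10% (248 members) began at 33.2 and had a median of 39.6, and the weaker 50% (1240 members) ended at 21 and had a median of 18.2. In the replicate lists the same rule gave medians of 11.2 in replicate 1 and 10.7 in replicate 2, on a lower scale than the pooled list. The X peaks left out had a median pooled signal of 41.7, about that of the strongest 10% of members. Around the distance limit there were few peaks: the 4 members up to 300 bp from a small RNA gene had signals of 17.4 to 38.4, and the 4 peaks left out at over 100 bp had 16.6 to 55.9.

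The strongest member lay between genes, and W02H3.3 had the nearest gene start, 3959 bp from the summit at chrX:11094012-11094441. Its signal was 148 on pooled reads, 78.6 in replicate 1 and 67.9 in replicate 2, and it ranked 1 among X members in both replicates. The member nearest to ZK899.6 (chrX:9465627-9466056) had 141 on pooled reads, 74.2 in replicate 1 and 67.6 in replicate 2, and ranked 2 in both. The member nearest to F55G7.5 (chrX:11937304-11937733) had 128, with 68.9 in replicate 1 and 60.7 in replicate 2. These 3 members ranked within the strongest 4 of each replicate list, and all 3 lay outside promoter windows, exons and introns of protein-coding genes.

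The fourth member in rank (chrX:5429361-5429790) lay in an exon of pks-1, a polyketide synthase gene, with the start of itm-2 nearest at 15587 bp. Its signal was 123 on pooled reads, 68.3 in replicate 1 and 50.9 in replicate 2. The next members in rank lay in promoter windows. At serp-1.1 (chrX:15841094-15841523) the summit was 263 bp upstream of the gene start, and the signal was 122 on pooled reads, 59.4 in replicate 1 and 56.1 in replicate 2. At T13C5.6 (chrX:6207634-6208063) the summit was 162 bp upstream, with 115 on pooled reads, 49.2 in replicate 1 and 62.0 in replicate 2. Each of these members ranked within the strongest 13 in both replicates.

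Further members of the strongest 25 lay near genes of varied kinds. The one near F20B6.9 had a pooled signal of 111, the one near K02D3.1 had 104, and the one before nspc-17, of a nematode-specific peptide family, had 102. At ins-39, which encodes an insulin-like peptide, the summit was 655 bp upstream and the signal was 99.4 on pooled reads, 54.3 in replicate 1 and 43.0 in replicate 2. A member 2955 bp upstream of sma-9, which encodes a zinc finger protein of the body-size TGF-beta pathway, had 96.6. One in an intron of mom-1, whose product acts in the release of Wnt ligands, had 90.9, with the start of cest-16 nearest. One 1186 bp upstream of nfki-1, a relative of the IκB genes, had 88.7, and the one near F19H6.5 had 82.9. These members lay before, within and between genes.

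At ain-1, which encodes a GW182 relative that acts in silencing by microRNAs, the summit was 789 bp upstream and the signal was 80.8 on pooled reads, 30.4 in replicate 1 and 52.7 in replicate 2. At puf-9, an RNA-binding protein of the Pumilio family, it was 353 bp upstream with 71.9, 40.7 and 31.5 in those lists in the same order. At zfp-3, a zinc finger gene, it was 315 bp upstream with a pooled signal of 72.6. The remaining members of the strongest 25 were nearest to Y41G9A.17 (77.1), gtr-1 (76.6), W01H2.2 (75.3), F22H10.2 (75.0), T27A8.7 (74.0) and T26C11.4 (69.8), with 2 more near C30E1.4. Of the 25, those in promoter windows were at serp-1.1, T13C5.6, nspc-17, ins-39, ain-1, zfp-3 and puf-9, and 15 were intergenic.

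Replicates differed at single strong members. The 2 members near C30E1.4 had pooled signals of 74.2 (chrX:16929515-16929944) and 73.0 (chrX:16930707-16931136). The first had 35.2 in replicate 1 and 40.1 in replicate 2, and ranked 35 and 18 there. The second had 13.7 in replicate 1, rank 1037, and 60.2 in replicate 2, rank 5. Its pooled value therefore stood on replicate 2, while its neighbour stood high in both. Of the 60 members in the thresholded list, 57 ranked within the strongest 10% of X members in both replicates. The other 3 were this one, the member nearest to C34D10.5 at rank 50 (36.5 in replicate 1 and 15.7 in replicate 2) and the one in ldb-1 (17.8 and 35.0), all named for these values.

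The limit of the thresholded list fell at a signal of 51.8. Just inside it were members at syd-2, a scaffold protein of synapses (52.9), twf-2, a twinfilin (52.8), vit-2, a yolk protein (52.1), an intron of unk-1 with C34D10.5 nearest (52.1), and ldb-1, a partner of LIM-domain factors (51.8). Just outside were members nearest to aakg-3, a regulatory subunit of the AMP-activated kinase (51.4), sox-4, a transcription factor (51.3), pdk-1, a kinase of insulin signalling (50.9), dhhc-9 (50.7) and unc-115, an actin-binding protein of axon growth (50.6). The values thus ran on across the limit without a gap. The member near aakg-3 had 38.6 in replicate 1 and 12.4 in replicate 2, so its replicate values lay further apart than those of the members at sox-4 (29.7 and 22) and pdk-1 (30.7 and 21.2).

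The weak end of the list was less well shared. The 5 weakest members all had a pooled signal of 16.4. They lay in exons of R07E3.1, of the acid phosphatase gene acp-5 and of the glutamate receptor gene glr-7 (hlh-15 nearest), in the promoter window of F35A5.5, and between genes near mdl-1, which encodes a Mad-like factor. R07E3.1 was listed in replicate 1 only (8.84), and F35A5.5 (9.35) and acp-5 (9.70) in replicate 2 only. The member in glr-7, last in rank, was listed in both, with 9.96 in replicate 1 and 12.4 in replicate 2. The member near mdl-1 overlapped peaks of 18.9 in replicate 1 and 30.3 in replicate 2, but it also overlapped a stronger pooled peak, so its replicate values cannot be told apart from those of that peak. Of all members, 205 (8.27%, interval 7.21 to 9.42%) overlapped a stronger pooled X peak, 7 in the strongest 10% and 129 in the weaker 50%.

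Presence in both replicates ran with signal. Of the strongest 10% 245 of 248 (98.8%, interval 96.5 to 99.7%) shared at least 1 bp with a peak in both replicate lists, and of the weaker 50% 353 of 1240 did (28.5%, interval 26 to 31.1%). Over all 2480 members the share was 50.8% (1260, interval 48.8 to 52.8%). A further 648 were overlapped in replicate 1 only, 495 in replicate 2 only and 77 in neither, and 74 of those 77 were in the weaker 50%. From the strongest to the weakest 10% the share in both was 98.8, 86.7, 74.2, 59.3, 46.8, 45.6, 30.2, 26.2, 25 and 15.3%. Pooled reads come from the same replicates, so this is a description of the list and not an independent check. With an overlap of at least 50% of the shorter peak, the share in the weaker 50% was 17.3%.

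**Figure D1:**
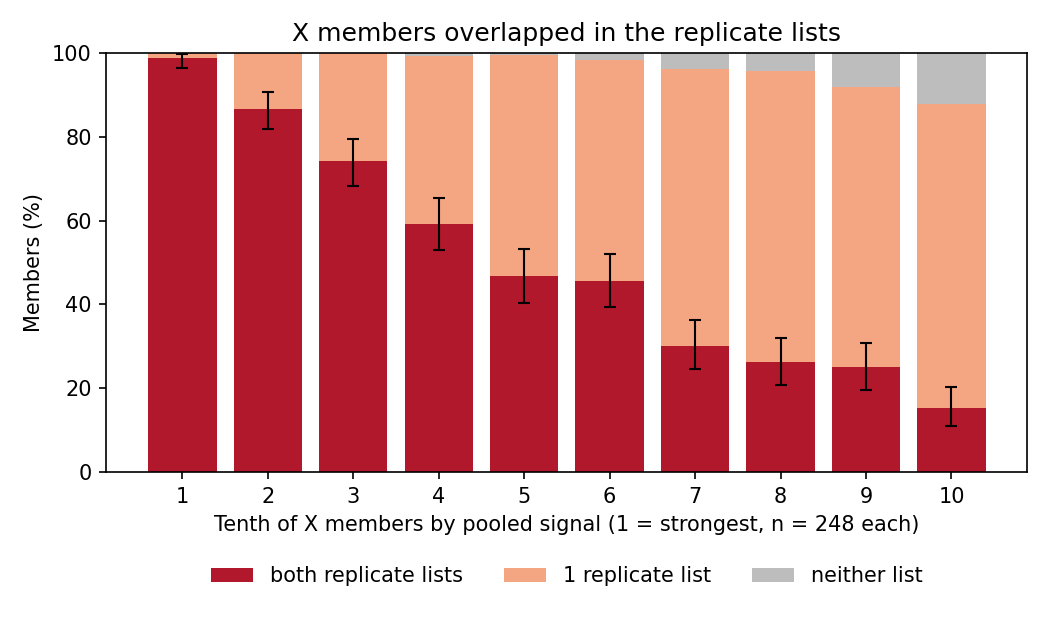
Share of X members (%) overlapped in both replicate lists, in 1 list or in neither, by steps of 10% of pooled signal from the strongest (1) to the weakest (10), with n = 248 in each and exact 95% intervals on the share in both. The share in both runs from 98.8% in the strongest to 15.3% in the weakest.

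Strong in the pooled list did not always mean strong in each replicate. Of the strongest 10%, 112 (45.2%, interval 38.9 to 51.6%) overlapped a peak within the strongest 10% of X members of both replicate lists. In the other direction, 347 of the 364 strongest replicate 1 members (95.3%) and 315 of the 326 strongest replicate 2 members (96.6%) overlapped a pooled member. Between replicates, 260 of those 364 (71.4%) overlapped a replicate 2 member and 257 of those 326 (78.8%) overlapped a replicate 1 member. In the weaker 50% of each replicate list these shares were 30.2% for replicate 1 and 30.4% for replicate 2. Across the 1260 members found in both, the replicate signals had a Spearman coefficient of 0.28, with the points sharing a control and the selection on pooled reads. All X peaks of a replicate list together covered 9.08% of X bases in replicate 1 and 8.0% in replicate 2. How many overlaps join unrelated weak peaks was not tested.

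**Figure D2:**
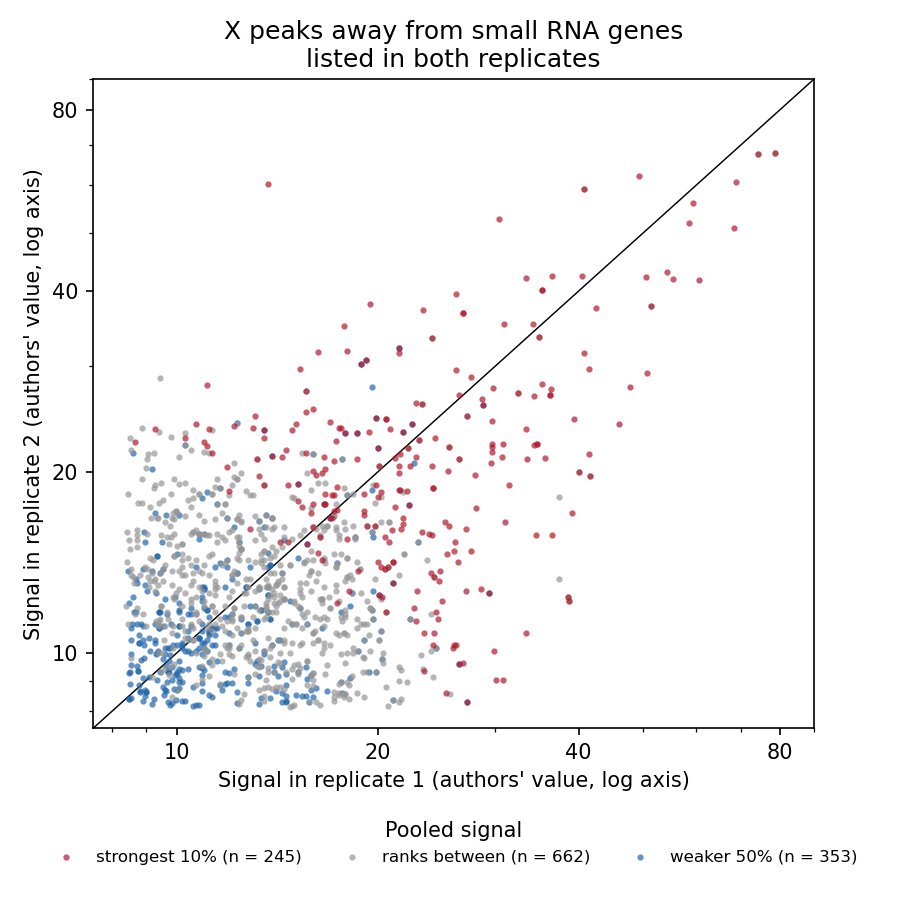
Signal in replicate 2 against replicate 1 (authors' values, log axes) for the 1260 X members overlapped in both lists, coloured by pooled signal, with the line of equal values. The strongest 10% (n = 245 of 248 here) spread up to 78.6 in replicate 1 and 67.9 in replicate 2, and the weaker 50% (n = 353) crowd at the low end.

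The place of the summits also differed along the list. Promoter windows, taken as 1000 bp upstream to 200 bp downstream of a protein-coding gene start, held 97 of the 248 strongest members (39.1%, interval 33.0 to 45.5%) and 278 of the 1240 weaker ones (22.4%, interval 20.1 to 24.8%). Intergenic summits made up 32.3% of the strongest 10% and 24.8% of the weaker 50%. Exons held 12.9 and 27.3% of those groups, and introns 15.7 and 25.6%. Of all 2480 members, 25.8% lay in promoter windows, 25.6% between genes, 25% in exons and 23.6% in introns. The bases of X more than 200 bp from small RNA genes were 17.6% promoter window, 33.1% intergenic, 21% exon and 28.2% intron. The strong end was thus low in exons and introns, and the weak end was closer to the make-up of the chromosome.

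The replicate lists gave the same order. In replicate 1, 32.4% of the strongest 10% and 20.0% of the weaker 50% of X members had the summit in a promoter window. In replicate 2 the shares were 36.2% and 21%. Among the 60 thresholded members 29 (48.3%) lay in promoter windows, 22 (36.7%) between genes, 7 in introns and 2 in exons. Autosomal peaks under the same distance rule, 13309 in all, had 39.6% of their strongest 10% in promoter windows, close to X, with 17.4% between genes and 23.7% in exons. With a narrower window of 500 bp upstream, 29.4% of the strongest 10% and 15.5% of the weaker 50% of X members were in it.

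**Figure D3:**
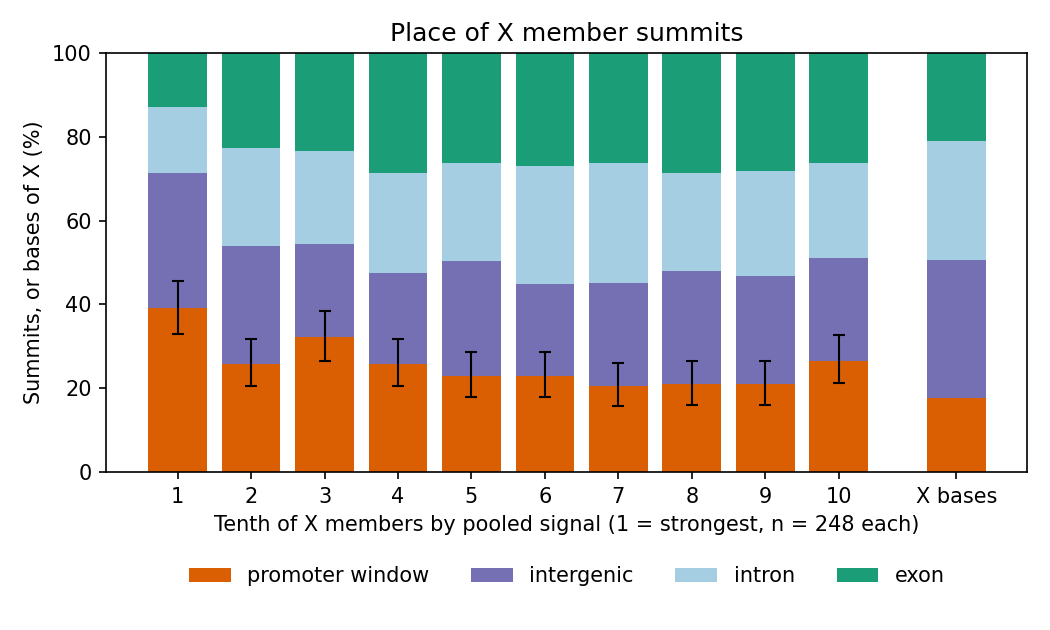
Place of the summits (%) by steps of 10% of pooled signal from the strongest (1) to the weakest (10), n = 248 each, with exact 95% intervals on the promoter share, and the make-up of X bases at the right. The promoter share is 39.1% in the strongest 10%, and exons hold 12.9% there.

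Summits just before gene starts were more frequent among strong members than among weak ones, though in a minority of both. The median distance to the nearest protein-coding start was 1085 bp in the strongest 10% and 1742 bp in the weaker 50%. Within 1000 bp upstream of that start lay 90 of the 248 strongest summits (36.3%, interval 30.3 to 42.6%) and 219 of the 1240 weaker ones (17.7%, interval 15.6 to 19.9%). Within 1000 bp downstream lay 25 (10.1%) and 193 (15.6%). The share more than 5000 bp from any start was alike in both, at 14.9% and 14.8%. Of the 97 strongest members in promoter windows, 9 lay in the windows of at least 2 genes.

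**Figure D4:**
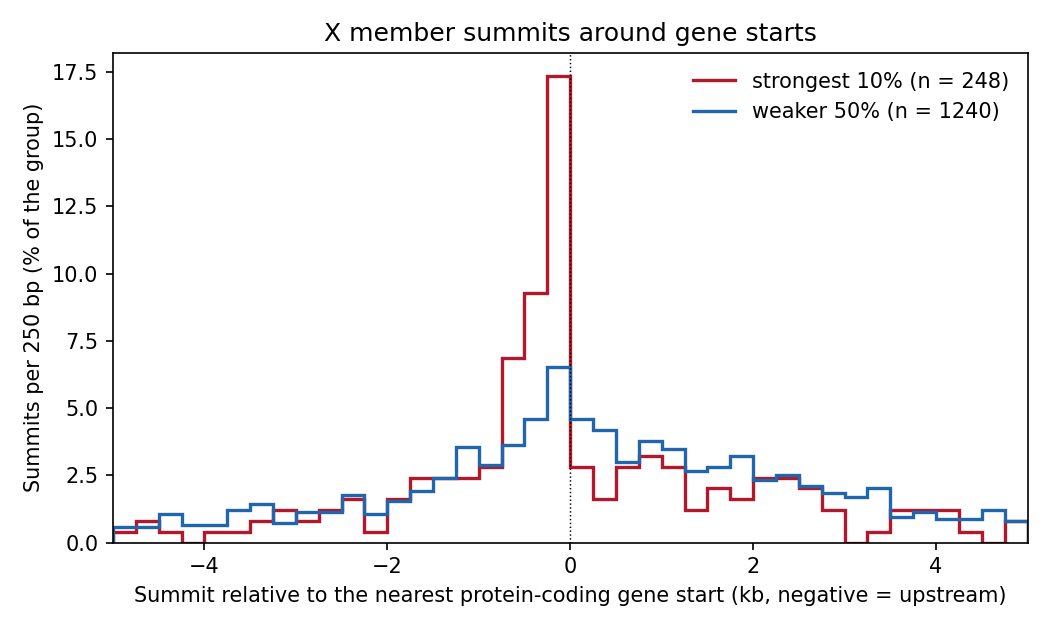
Position of X member summits relative to the nearest protein-coding gene start (kb, negative is upstream) as a share of each group per 250 bp, for the strongest 10% (n = 248) and the weaker 50% (n = 1240). The strongest members form a narrow rise on the upstream side, where 36.3% lie within 1000 bp against 17.7% of the weaker ones.

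Members also overlapped other annotated RNA genes that the rule did not use. Genes of the RefSeq biotype ncRNA were overlapped by 45 of the strongest 10% (18.1%) and by 122 of the weaker 50% (9.84%). Pseudogenes were overlapped by 1 (0.403%) and 23 (1.85%) members of these groups. Over all 2480 members, 287 overlapped a gene of the ncRNA biotype, 8 a piRNA gene and 3 a tRNA pseudogene. The part of X bases or of promoter windows that these genes cover is not given here, so their shares were not set against a background.

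The genes with a member in their promoter window were counted over lists picked by gene name. Of 2730 protein-coding genes on X, 602 (22.1%) had a summit of any member in the window, and 106 (3.88%) had one of the strongest 10%. Against this, 4 of the 5 heat shock protein and chaperone genes on X had a member, and 2 had one of the strongest 10%. These were dnj-14, a DnaJ co-chaperone, with 55.9 on pooled reads, 39.1 in replicate 1 and 17.1 in replicate 2, and hsp-3, a chaperone of the endoplasmic reticulum, with 54.9, 30.8 and 22.3 in the same order. The member at dnj-14 lay 290 bp upstream of it and nearer, at 241 bp, to the start of glit-1, so it cannot be assigned to one of the pair. At hsp-43 (23.2) and hsp-25 (17.2) the members were weak, and hsp-25 was listed in replicate 2 only. A list of 5 genes gives little to read a share from.

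Intestinal genes had a member at 6 of 11 (54.5%), against 22.1% of all X protein-coding genes. One of the strongest 10% was at 1 gene (9.09%), against 3.88% of all. That was vit-2 (52.1 on pooled reads, 28.7 in replicate 1 and 26.5 in replicate 2), which also counts in the vitellogenin list, where 1 of 5 genes had a member. Its replicate values are those of overlapping peaks. By replicate summits, 0 vitellogenin genes in replicate 1 and 1 in replicate 2 had one of the strongest 10% in the window. The gene of the intestinal GATA factor elt-2 had 31.7, and the aspartic protease genes asp-14 and asp-3 had 19.7 and 19.6. Nuclear hormone receptor genes, which encode ligand-regulated transcription factors, had a member at 9 of 23, and 2 of the strongest 10%, at nhr-48 (44.4) and nhr-137 (41.8), with nhr-1 (25.5) and nhr-27 (22.8) next. At nhr-48 replicate 1 had 33.3 and replicate 2 had 10.8, and at nhr-137 they had 27.1 and 12.7, so replicate 1 was the higher at both. The member at asp-3 was listed in replicate 2 only.

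Muscle genes had a member at 4 of 11, none of them in the strongest 10%: the troponin T gene mup-2 (27.5), the actin gene act-4 (25.6), the myosin light chain gene mlc-1 (19.1) and pat-9 (17.6). Of these, mup-2 was listed in both replicates and the others in replicate 1 only. In the list of replicate 1, 1 muscle gene had one of the strongest 10%. Over all X protein-coding genes 22.1% had a member and 3.88% one of the strongest 10%. In lists this short, a count of none at the strong end is thus near the share over all genes. Cuticle collagens had one at 8 of 29, led by col-9 (26.8), col-179 (26.3), col-173 (24.0) and col-44 (23.5), and again none of the strongest 10%. Homeobox genes had one at 3 of 23, namely ceh-60 (36.2), lim-6 (25.1) and ceh-90 (21.6), with ceh-60 in the strongest 10%. The list of acetylcholine receptor subunits was picked by name and takes in every lev- and lgc- gene. Not all of its genes need encode such subunits. It had a member at 3 of 26, acr-12 (38.4, in the strongest 10%), lgc-47 (27.5) and acr-9 (17.6). Neuropeptide genes had one at 7 of 37, where ins-39 (99.4) stood far above flp-32 (26.4), nlp-101 (21) and flp-12 (20.5). The members at col-44, lim-6, ceh-90, acr-9, nlp-101 and flp-12 were also listed in replicate 1 only. The member at col-44 was nearer to the start of col-9, and the one at acr-9 to that of C40C9.3.

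Chemoreceptors, the receptors of smell and taste neurons, had a member at 1 of 35 genes (2.86%), srxa-8 (18.3). Potassium channels had one at 1 of 15 (6.67%), kqt-2 (30.2). Over all X protein-coding genes the share was 22.1%. The C-type lectins had 1 of 3, clec-86 (28.0), and the histones 1 of 4, his-71 (21.7), a histone H3.3 gene. F-box genes had 2 of 18, fbxb-58 (36.1) and fbxa-96 (17.6). The member at srxa-8 was listed in replicate 2 only, and the one at fbxa-96 in neither replicate. The member at fbxb-58 overlapped a stronger one (65.1) whose summit was 1017 bp upstream of the gene and so just outside the window. The dosage compensation list was picked by name and also takes in genes that act before the complex, such as xol-1 and sex-1. Of its 6 genes on X, only sdc-2, which marks X for the complex, had a member. Its signal was 28.2 on pooled reads, 12.5 in replicate 1 and 16.5 in replicate 2. No gene of the ribosomal protein list lies on X under these names, so that list gave no value.

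Members were spread along the whole of X. They numbered 140.0 per Mb, with a median of 3436 bp between neighbouring pooled summits, 2718 bp in replicate 1 and 2982 bp in replicate 2. The quartiles of the pooled distances were 1352 and 9188 bp, so many members stood close together and others far apart. The shortest was 199 bp, less than the 430 bp width of a member. Overlapping members, among them the 205 that overlap a stronger pooled X peak, were each counted here. In full 1 Mb bins the counts ran from 100 in the first to 193 between 6 and 7 Mb. That bin also held 26 of the strongest 10%, against a median of 14 per bin, and it had the highest count in both replicates (246 and 223). The strongest 10% alone, 248 in number, were a median of 44326 bp apart, and the 1240 of the weaker 50% a median of 8700 bp.

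The densest 100 kb (chrX:11446348-11546347) held 54 members on pooled reads, 54 in replicate 1 and 51 in replicate 2, and 7 of the 54 belonged to the strongest 10%. Its strongest members, with 67.8 and 55.8, were nearest to lin-14, a transcription factor gene of larval timing. The longest gap ran over 106204 bp (chrX:14312698-14418902), from a member near mgrn-1 (20.5) to one near F23D12.2 (18.3), and contains 14 protein-coding genes. It was not empty in the replicates, where replicate 1 had 10 members and replicate 2 had 7. The pooled list also had 1 peak there that the distance rule left out. The next gaps were 86816 bp near the left end of X, between members near Y73B3A.20 (19.7) and Y73B3A.8 (18.8), and 84527 bp between members near C27C12.4 (36) and mrp-5 (26.3), an ABC transporter gene. Bases that RefSeq soft-masks as repeats made up 40.0, 49.3 and 34.6% of the 3 gaps, against 21.8% of the densest 100 kb and 30.6% of X.

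Repeat masking and base composition moved with signal as well. The median share of soft-masked bases within 50 bp of the summit was 0% in the strongest 10% and 18.8% in the weaker 50%. In the replicate lists it was 0.495% and 19.8% in replicate 1, and 6.44% and 19.8% in replicate 2. Within 50 bp of pooled summits, G and C made up a median of 49.5% of bases in the strongest 10% (SD 9.31 over members) and 39.6% in the weaker 50% (SD 9.53). In windows 500 bp to either side the medians were 34.7% and 35.1%, near the 35.2% of X as a whole. The rise in G and C was thus narrow, and larger at the strong end. The strongest 10% of the replicate lists had medians of 46.5% in replicate 1 and 45.5% in replicate 2, against 38.6% and 36.6% in the weaker 50%. Autosomal peaks of the pooled list had 46.5% G and C in the strongest 10% and 39.6% in the weaker 50%. Their soft-masked medians were 13.9% and 21.8%. The direction of both differences was thus not particular to X. The part that base composition plays in the signal was not tested.

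Short words were searched on both strands. Within 50 bp of the summit GAGAGA was present in 48 of the strongest 10% (19.4%, interval 14.6 to 24.8%) and 98 of the weaker 50% (7.90%), and in 6.48% of windows of the same length in all X promoters. Autosomal peaks gave nearly the same shares, 19.2% in the strongest 10% and 7.63% in the weaker 50%. The E-box CACGTG was at 5.24% and 1.85% of those X groups and at 1.76% of X promoters, and GGGCGG at 4.44%, 2.10% and 1.21%. GTTCGA, the core of the tRNA B box, was at 6.05%, 2.90% and 3.22%. The GATA core TGATAA was at 5.65%, 9.60% and 11.1%. TTTCAG was at 4.03%, 13.4% and 14.3%, and AAAAAA at 21.8%, 29.9% and 44.8%, so the words rich in A and T were less frequent at the strong end.

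Words of 9 letters were then counted within 100 bp of the summit, with no list fixed for them. CTGCGTCTC came first in the strongest 10%, in 22 of 248 (8.87%, interval 5.64 to 13.1%) and in 16 of the 1240 weaker members (1.29%). Windows of the same length in X promoters held it in 0.330% of 2730. On autosomes it was in 8.11% of the strongest 10% and 1.92% of the weaker 50%, so it was more frequent at the strong end on both. Among the 60 strongest X members it was in 11, followed by CCCTGCGCG in 10, GCGCAGGGA and AGACGCAGA in 9 each, and GCGAAGGGA, CCTGCGCGA and AGAGACGCA in 8 each. CCCTGCGCG, GCGCAGGGA and GCGAAGGGA contain GCGNAGGG, shown above in capitals, or its reverse complement, while AGACGCAGA and AGAGACGCA are shifted forms of the reverse complement of CTGCGTCTC.

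GCGNAGGG stood at most of the very strongest members. Within 100 bp of the summit it was present in 9 of the 12 strongest X members, 14 of the 25 strongest, 17 of the 60 strongest and 23 of the 248 in the strongest 10% (9.27%, interval 5.97 to 13.6%). In the weaker 50% it was in 7 of 1240 (0.565%, interval 0.227 to 1.16%), and in all X promoters in 11 of 2730 (0.403%). Of the 12 strongest, those without it were at serp-1.1, T13C5.6 and near sma-9. The word was chosen after the sequences of the strongest members had been seen, so its share there is a description with no test. As background, these letters with C at the open position are the core of the motif known from recruitment sites of the dosage compensation complex. A match to 8 letters does not make a peak such a site.

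On autosomes the same word was in 0 of the 12 strongest peaks away from small RNA genes, in 0 of 25, in 1 of 60 and in 11 of 1331 in the strongest 10% (0.826%, interval 0.413 to 1.47%). The word was read off the strongest X members, and none was sought in that way on autosomes. A higher share at the strong end of X is thus partly set by that choice. The replicate lists that follow share their reads with the pooled list, so they are no separate check. In the replicate lists it was in 8 of the 12 strongest, 12 of the 25 strongest and 16 of the 60 strongest X members in replicate 1, and in 7, 13 and 17 of them in replicate 2. In windows 500 bp from the strongest 10% of X summits it was in 4 of 496 (0.806%). The share in the strongest 10% was 5.65% for GCGCAGGG alone, 4.84% for GCGCAGGGA or GCGAAGGGA, 6.05% within 50 bp of the summit and 6.04% in replicate 1 alone. In the strongest 5% of members it was 16.1%.

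**Figure D5:**
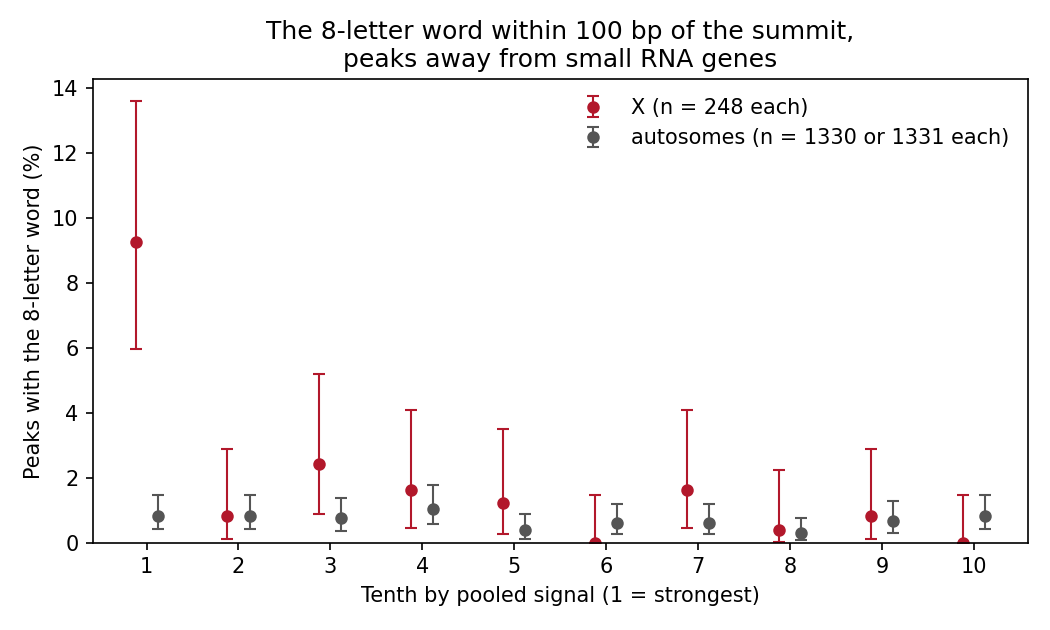
Share of peaks (%) with GCGNAGGG within 100 bp of the summit, by steps of 10% of pooled signal from the strongest (1) to the weakest (10), for X (n = 248 each) and autosomes (n = 1330 or 1331 each) away from small RNA genes, with exact 95% intervals. X has 9.27% in the strongest 10% and at most 2.42% in the others, and autosomes have 0.826% there. The word was chosen from the strongest X members, so the X share there is partly set by that choice.

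The word was taken from the very strongest members, so a higher signal of its carriers follows from that choice and is given only as a description. Within the strongest 10%, the 23 members with it had a median pooled signal of 75.0 (33.5 to 148) and the 225 without it 39 (33.2 to 122). Their medians were 40.7 and 21.8 in replicate 1, and 36.7 and 20.1 in replicate 2. Of the 23, 13 were intergenic, 7 in promoter windows, 2 in introns and 1 in an exon, and of the 225, 67 (29.8%) were intergenic and 90 (40.0%) in promoter windows. Their median distance to a gene start was 2497 and 1051 bp. Carriers were also the stronger members, so place and distance are likewise only described. Within the strongest 25, 57.1% of members with the word and 63.6% of those without it were intergenic. Their median distances there were 2612 and 1186 bp. Within the strongest 60 the intergenic shares were 52.9% and 30.2%. Of the 23, 7 had at least 2 copies within 100 bp. The nearest copy was a median of 31.0 bp from the summit.

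Beyond the strongest 25, word-bearing members of the thresholded list lay near fbxb-58 (65.1), R04E5.9 (62.5) and bet-2, a bromodomain gene (53.2). At bet-2 the summit was 495 bp upstream, with 28.8 in replicate 1 and 25.9 in replicate 2. At fbxb-58 the replicates had 26.8 and 36.7, and at R04E5.9 34.3 and 26.8. All 3 were within the strongest 10% of X members of both replicates. These genes were picked for carrying the word, after their values were seen.

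Most copies of the word on X had no member. X holds 399 occurrences, and 56 (14.0%, interval 10.8 to 17.8%) lay within 100 bp of a member summit, 32 of them at the strongest 10%. Occurrences with another within 200 bp had a member at 18 of 31 (58.1%, interval 39.1 to 75.5%), and those alone had one at 38 of 368 (10.3%, interval 7.41 to 13.9%). On autosomes 93 of 1533 occurrences (6.07%, interval 4.92 to 7.38%) had a peak away from small RNA genes within 100 bp. Single autosomes ran from 3.88% on V to 10.3% on I (27 of 261, interval 6.93 to 14.7%), where the interval overlapped that of X and the share was that of the lone X occurrences. Occurrences that share a member were counted each, so they are not independent. The word was taken from the strongest X members. Of the occurrences with a member, 16 of the 18 with another copy nearby and 16 of the 38 alone were at the strongest 10%. The X shares are thus partly set by the choice of the word and are only a description. Their density was 22.5 per Mb on X and 18.6 per Mb on autosomes.

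The share of X among all nuclear peaks away from small RNA genes was high among the strongest 25 and near its overall value in the strongest 10%. Of the 25 strongest such peaks in the pooled list 11 lay on X (44.0%, interval 24.4 to 65.1%), of the 100 strongest 25 (25%, interval 16.9 to 34.7%) and of the 500 strongest 91 (18.2%, interval 14.9 to 21.9%). Over all 15789 of these peaks X held 15.7% (interval 15.1 to 16.3%), and X makes up 17.7% of nuclear bases. In replicate 1 the X share was 36% of the strongest 25, 24.0% of the strongest 100 and 18.8% of the strongest 500, against 16.4% overall. In replicate 2 it was 40.0, 24.0 and 14.6% at these limits, against 16.0% overall. In the strongest 10% of such peaks, X held 16.2% on pooled reads (interval 14.4 to 18.1%), 15.2% in replicate 1 (13.7 to 16.8%) and 15.1% in replicate 2 (13.6 to 16.8%), intervals that include each list's overall share. In the thresholded list, 60 of the nuclear peaks away from small RNA genes lay on X and 216 on autosomes.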

How the data were processed

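The signal value of each peak (narrowPeak, ce11) is the authors' deposited value. Per the notes deposited with the lists, peaks and background were called per replicate and on pooled reads against a common control, and a thresholded list was derived from these by the irreproducible discovery rate. The aligner, peak caller, scaling and threshold are not given in the sources used here. Depth is unknown. The ce10 lists were not used.

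Replicates were named by the number in the labels. X peaks more than 200 bp from RefSeq tRNA, snoRNA, snRNA, rRNA and miRNA genes were ranked by signal, with the summit from the lists' offset and coordinates 1-based. The place of a summit was set in the order promoter window, exon, intron, intergenic, over protein-coding genes of RefSeq WBcel235, the assembly of ce11. A member matched a replicate when any peak of that list overlapped it by at least 1 bp, and took the strongest such signal.

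Shares carry exact Clopper-Pearson 95% intervals. No test was run, since 1 group of 2 replicates gives none. Genes named have the start nearest to the 25 strongest members, to 5 members on either side of the thresholded limit, to the 5 weakest, or to the longest gaps and densest 100 kb, or are up to 4 per gene list by signal. Outside this rule, members near fbxb-58, R04E5.9, bet-2 and C34D10.5 were named after their values were seen, and glit-1 and C40C9.3 as nearer starts. The members and lists were chosen with earlier results of these data known. Place, distance and overlap functions were tested on simulated positions. Alternatives varied the distance, window, overlap, list, strength limits and replicate. Python 3.11.15, numpy 2.4.6, pandas 2.3.3, scipy 1.17.1 and matplotlib 3.10.9 were used.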

Additional observations from a re-analysis of the deposited data

How the results depend on the processing

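Of 67 alternative values for 13 results, 38 were labelled as unchanged and 29 as moved. Shares were judged by the interval of the value reported, and medians by the spread of the replicates. The member count was judged by a looser limit on its ratio to the 2480 reported. Its values of 3640 in replicate 1 alone and 3251 in replicate 2 alone were therefore labelled as unchanged. Distance limits of 0 or 1000 bp from small RNA genes, and place by peak midpoint, moved none of the values computed for them.

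The thresholded list had 60 members, 100% in both replicates, 48.3% in promoter windows, an X share of 21.7% and a median spacing of 202665 bp. The 500 bp promoter window gave 18.2% for all members, 29.4% for the strongest 10% and 15.5% for the weaker 50%. Overlap of 50% of the shorter peak gave 42.1% in both replicates for all members and 17.3% for the weaker 50%. The strongest 5% had 100% in both replicates, 50% in promoter windows, 52.5% GC and 16.1% with GCGNAGGG. The weakest 10% had 15.3% in both replicates and 26.6% in promoter windows. GC of the strongest 10% was 47.3% within 100 bp. The word share was 5.65% for GCGCAGGG and 4.84% for GCGCAGGGA or GCGAAGGGA. The word and its alternatives were chosen after seeing the data.

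Without replicate 1 or 2, that is in the list of the other replicate alone, promoter shares were 21.8 to 23.4% for all members, 32.4 to 36.2% for the strongest 10% and 20 to 21% for the weaker 50%. The X share was 16.0 to 16.4%, the spacing 2718 to 2982 bp, and GC 45.5 to 46.5% in the strongest 10% and 36.6 to 38.6% in the weaker 50%. The strongest 10% stayed above the weaker 50% in promoter share and GC under each of these settings. Causes were not tested. Unknown depth, 2 replicates and a common control limit all values, and weak members are the least certain.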
